A study of Mus musculus with 8 samples.

Results

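Tenascins and lecticans are large secreted proteins of the extracellular matrix of the brain, and 9 genes for them and for their closest partners are described here in activated microglial cultures. The genes are Tnr and Tnc, which encode tenascin-R and tenascin-C, and Bcan, Ncan, Vcan and Acan, which encode the lecticans brevican, neurocan, versican and aggrecan. Hapln1 encodes a link protein, Ptprz1 a receptor phosphatase and Has2 a hyaluronan synthase. Selected on the gene symbol, they make up 9 of 31406 genes listed for the treated groups and 9 of 31601 listed against control, with the same identifiers in both tables. They were proposed with the differences between the groups in both tables already known. The tests below therefore place each gene among all genes and give no independent support for its direction.

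RNA sequencing was done on 8 libraries from primary striatal microglia of WT C57/BL6 pups aged 2 to 4 days, kept in culture for 15 days and then exposed for 48 h to the activating mixture of IFNgamma (interferon gamma) and LPS (lipopolysaccharide). The A2A antagonist group (n = 4) received 200 nM SCH 58261, an antagonist of the adenosine A2A receptor, at 24, 32 and 40 h of activation. The dual group (n = 4) received the same additions together with 2-Cl-IB-MECA, an agonist of the adenosine A3 receptor, at 200 nM. A further condition, activated cells given vehicle, is represented here only by a mean per gene that the authors deposited. Columns of 3 control libraries were deposited too, but they belong to no sample of this series and were not used. The labels contradict each other: the titles and the column names give the grouping used here, whereas the treatment field has 2-Cl-IB-MECA on the libraries titled without it and lacks it on the others. The direction of every difference between the treated groups rests on the titles. The study used 4 pregnant animals, and which library came from which animal or culture was not stated. The p-values therefore measure the spread between these libraries, which may be in part technical. The study's methods give 3 replicates of ligand-treated cells, whereas a figure legend of the study and the labels give 4.

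The lecticans are chondroitin sulfate proteoglycans that bind the long sugar hyaluronan at one end and tenascins at the other. Link proteins clamp a lectican to hyaluronan, and tenascin-R, which assembles as a trimer, ties several lecticans together. The resulting lattice is densest in the perineuronal nets around some neurons. Tenascin-C, neurocan, brevican and versican are known to accumulate around injured brain tissue. Astrocytes and cells of the oligodendrocyte lineage are the glia best known for making these proteins, tenascin-R being known mainly from the oligodendrocyte lineage.

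Total counts ranged from 32630602 to 45878639 per library, and the 9 genes together took 0.133% to 0.147% of them. The culture was labelled microglia, with a stated purity of over 95% by CD11b staining. All 9 microglia markers examined were detected, but so were the markers of every other cell type in the table. Detection therefore says nothing about purity. The microglial complement gene C1qa stood at 420 FPKM (fragments per kilobase of gene length, scaled to the library total) on average over the 8 libraries and Itgam, which encodes CD11b, at 25.1 FPKM. The homeostatic markers Tmem119 and P2ry12 stood at 3.18 and 0.715 FPKM. Markers of other cells were present too, with the astrocyte genes Gfap at 390 FPKM and Aqp4 at 256 FPKM. The summed level of 9 astrocyte markers was 6256 to 6542 CPM (counts scaled to the same total in every library) with the antagonist and 6352 to 6799 CPM with both ligands. The corresponding sums for 9 microglia markers were 1025 to 1096 CPM and 983 to 1040 CPM, and those for 7 markers of oligodendrocyte precursors were 719 to 753 CPM and 678 to 739 CPM. For 6 oligodendrocyte markers they were 205 to 218 CPM and 184 to 229 CPM, and for 6 fibroblast markers 2260 to 2539 CPM and 2265 to 2879 CPM. The largest part of the microglia sums was C1qa, with a mean of 476 CPM with the antagonist and 403 CPM with both ligands. Of the 9 microglia markers 4 had a positive log2 fold change between the treated groups. Neuron and endothelial markers summed to at most 50.9 and 57.9 CPM in any library. No marker in the table was at 0 in all libraries. In such bulk samples fewer cells of a type and less RNA per cell cannot be told apart.

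The genes lie on different chromosomes of the mouse genome (GRCm38), except for Vcan and Hapln1, which are neighbours on chromosome 13. Tnr spans 159523769 to 159931729 on the plus strand of chromosome 1, with 23 exons in its longest transcript, and Tnc spans 63959785 to 64047015 on the minus strand of chromosome 4, with 26 exons. Bcan lies at 87987531 to 88000230 on chromosome 3, Ncan at 70093085 to 70120873 on chromosome 8, Vcan at 89655312 to 89742509 on chromosome 13 and Has2 at 56665627 to 56694539 on chromosome 15, all on the minus strand. Acan at 79053483 to 79115099 on chromosome 7, Hapln1 at 89539796 to 89611652 on chromosome 13 and Ptprz1 at 22875502 to 23052916 on chromosome 6 are on the plus strand. All 9 are protein coding, and at most 0.966% of the 31-base words of any of their transcripts (Ncan) occur in transcripts of other genes. The 250 bases before the start site that RefSeq gives are shown for Tnr and Vcan, whose libraries separated the treated groups, and for Tnc, the most abundant of the genes. The sequences are those of RefSeq (GRCm38.p6), written 5′ to 3′ on the strand of the gene in lower case, and capitals mark a match to a searched motif. RefSeq windows were found for 8 of the 9 genes, and for Tnc the window that ends at the start of the annotated gene is the one shown. The RefSeq start equals the annotated start of Tnr, lies 3 bases before that of Vcan, and lies 840 bases inside the annotated gene for Hapln1, whose window is not shown.
Tnr, chr1:159523519-159523768, plus strand: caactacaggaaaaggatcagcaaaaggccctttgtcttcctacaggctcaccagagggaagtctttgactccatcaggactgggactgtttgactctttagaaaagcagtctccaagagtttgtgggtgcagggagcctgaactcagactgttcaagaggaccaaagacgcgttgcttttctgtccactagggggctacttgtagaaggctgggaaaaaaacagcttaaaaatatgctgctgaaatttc
Tnc, chr4:64047016-64047265, minus strand: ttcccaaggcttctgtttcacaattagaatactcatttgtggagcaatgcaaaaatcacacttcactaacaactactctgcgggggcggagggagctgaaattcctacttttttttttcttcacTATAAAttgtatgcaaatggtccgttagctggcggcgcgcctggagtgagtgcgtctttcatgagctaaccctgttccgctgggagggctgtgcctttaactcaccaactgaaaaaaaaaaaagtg
Vcan, chr13:89742513-89742762, minus strand: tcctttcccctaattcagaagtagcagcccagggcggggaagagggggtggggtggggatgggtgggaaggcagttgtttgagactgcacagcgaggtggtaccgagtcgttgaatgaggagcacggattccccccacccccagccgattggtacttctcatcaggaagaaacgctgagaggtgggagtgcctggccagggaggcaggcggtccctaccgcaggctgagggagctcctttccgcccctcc

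The windows of 300 bases, which also hold the 50 bases after the start, differed widely in base composition. The windows of Tnr and Hapln1 held 3 CpG dinucleotides each, that of Vcan 12 and the shown window of Tnc 10, against a median of 7 (quartiles 3 and 20) over 32851 mouse promoter windows. Ptprz1 and Acan were at the upper end with 29 and 31, Bcan had 24 and Ncan 9. Neither the cAMP response element TGACGTCA, found in 1.79% of all windows, nor the AP-1 site TGANTCA, found in 7.81%, occurred on either strand in a window of these genes. The TATA box letters TATAAA, found in 13.6% of all windows, occurred in the shown window of Tnc, 126 bases before the start on the strand of the gene, and in Ncan, 11 bases before the start on the opposite strand. A second RefSeq window of Tnc has its start 79 bases inside the annotated gene. It held 16 CpG dinucleotides and the same TATAAA, 205 bases before that start. A match of letters is a description of the window and not a binding site.

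The genes covered a wide range of abundance. On the authors' FPKM scale, which corrects for gene length, Tnc was the highest with 66.0 ± 4.24 FPKM (SD, n = 8). Ncan followed with 31.9 ± 1.26 FPKM, Ptprz1 with 27.1 ± 0.666 FPKM and Bcan with 16.2 ± 0.932 FPKM (SD, n = 8 each). Tnr stood at 7.35 ± 0.708 FPKM, Vcan at 4.49 ± 0.320 FPKM and Has2 at 2.41 ± 0.228 FPKM (SD, n = 8 each). Acan, the lectican of cartilage and of mature perineuronal nets, was near the limit of detection with 0.0843 ± 0.029 FPKM, and Hapln1 was the lowest with 0.0191 ± 0.0144 FPKM (SD, n = 8 each). No gene in this order overlapped its neighbour in any library, although Acan and Hapln1 came close, with a lowest value of 0.0529 FPKM for Acan and a highest value of 0.0522 FPKM for Hapln1. Acan was carried by 13 to 49 counts per library and Hapln1 by 2 to 12 counts, so the levels of both were imprecise.

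Each lectican gene lies beside a link protein gene, with no protein-coding gene between them, and the members of 3 of the 4 pairs had very different levels. Vcan at 4.49 FPKM and Hapln1 at 0.0191 FPKM are 43.659 kb apart on chromosome 13. Bcan at 16.2 FPKM and Hapln2 at 0.0762 ± 0.0448 FPKM (SD, n = 8) are 21.519 kb apart on chromosome 3. Ncan at 31.9 FPKM and Hapln4, known as brain link protein 2, at 1.77 ± 0.150 FPKM (SD, n = 8) are 2.222 kb apart on chromosome 8. The ranges of the 8 libraries did not overlap within these 3 pairs. In the fourth pair, on chromosome 7, Acan and Hapln3 have 2 bases between them and were both low, at 0.0843 and 0.0776 ± 0.0256 FPKM (SD, n = 8), with overlapping ranges.

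**Figure D1:**
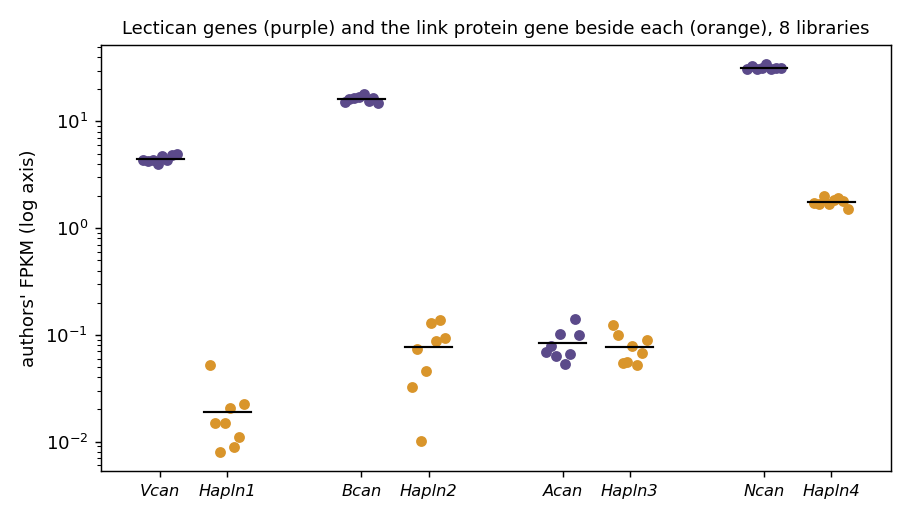
Authors' FPKM (log axis) of the 4 lectican genes and of the link protein gene that lies beside each, with 1 point for each of the 8 libraries and a line at the mean. Vcan, Bcan and Ncan lie far above their neighbours Hapln1 (mean 0.0191 FPKM), Hapln2 (0.0762 FPKM) and Hapln4 (1.77 FPKM), while Acan and Hapln3 overlap.

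Adding the A3 receptor agonist to the A2A receptor antagonist raises the question of whether these genes change further. Tnr was higher with both ligands, Vcan tended the same way without passing the test over all genes, and the most abundant genes, Tnc, Ncan and Ptprz1, differed by at most 0.03 on the log2 scale. Of the 9 genes, 8 passed the filter on low counts and 1 was called, meaning an adjusted p-value under 0.05 in edgeR over all genes, against 0.208% of the 18756 genes tested. The difference was positive for 7 of the 8, with a median log2 fold change of 0.06, against 51.5% positive and a median of 0.0038 over all genes tested. As the genes were chosen with these differences known, nothing is read from the counts.

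Tnr stood at 86.9, 89.7, 82.6 and 90.6 CPM in the 4 A2A antagonist libraries and at 98.8, 99.3, 107.1 and 107.2 CPM in the 4 dual libraries. Every dual library lay above every A2A antagonist library. The mean was 87.5 ± 3.57 CPM with the antagonist and 103 ± 4.66 CPM with both ligands (SD, n = 4 each), from 3224 to 4914 counts per library. This is a log2 fold change of 0.24 (SE 0.04), or 17.9% (95% interval 11.1% to 25.2%), at an adjusted p-value of 0.0240 in edgeR, and by its p-value Tnr was number 11 among the genes tested. The difference was far under the 1.5-fold that the study asked for in each treatment against activated control, which is another comparison. It was 0.21 to 0.26 in all 13 alternative fits, but the adjusted p-value in edgeR was 0.0608, 0.0811 or 0.0932 without A2A antagonist replicate 2, 3 or 4, and 0.0859 without dual replicate 3. The summed levels of the oligodendrocyte and oligodendrocyte precursor markers overlapped between the groups, as given above, and none of those markers was called. The sums join markers of both directions. Of the 7 precursor markers 3 had a positive log2 fold change, from Cspg4 at 0.13 (SE 0.05) down to Olig1 at -0.14 (SE 0.04). Of the 6 oligodendrocyte markers 1 was positive. Of the 9 microglia markers 1 was called, C1qa, which was lower with both ligands by a log2 fold change of -0.24 (SE 0.04, adjusted p-value 0.0240 in edgeR), and the part of the cell makeup in the difference in Tnr was not tested. Of the microglia markers 4 of 9 had a positive log2 fold change, among them Csf1r at 0.11 (SE 0.03, adjusted p-value 0.171 in edgeR). DESeq2 called C1qa and also Aif1, which had a log2 fold change of -0.21 in edgeR (SE 0.06) and an adjusted p-value of 0.0207 in DESeq2. Exons of Tnr overlap those of Gm38039 on the opposite strand over 443 bases, and whether the counting used the strand was not stated.

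Tnc, the other tenascin, which is found around injured and developing tissue, did not follow Tnr. Its level was 521.5, 520.4, 506.8 and 517 CPM in the A2A antagonist libraries and 585.4, 527.7, 472.3 and 486.1 CPM in the dual libraries. The antagonist libraries lay close together while the dual libraries spread to both sides of them, with a coefficient of variation of 1.30% against 9.81%. The log2 fold change was 0.0036 (95% interval -0.10 to 0.11) with an adjusted p-value of 0.985 in edgeR, so differences of more than about 8% in either direction lay outside the interval (-6.69% to 7.70%). Tnc shares 176 exonic bases with 8030451A03Rik on the opposite strand.

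Among the lecticans, Vcan had the clearest difference. It stood at 63.4, 62.3, 63.4 and 58.3 CPM with the antagonist and at 69.0, 64.0, 69.8 and 72.6 CPM with both ligands. The groups did not overlap, the lowest dual library lying just above the highest A2A antagonist library. Tnr and Vcan were the 2 of the 9 genes whose dual libraries all lay above the A2A antagonist libraries, against 3.36% of all genes tested. The log2 fold change of Vcan was 0.16 (SE 0.04), a level 11.4% higher (95% interval 4.48% to 18.8%), with an adjusted p-value of 0.135 in edgeR, which does not pass the threshold. DESeq2 gave an adjusted p-value of 0.0367 and so called Vcan as well as Tnr, 2 of the 9 genes, against 3.55% of the 10392 genes to which it gave an adjusted p-value. Of the fibroblast markers, which include other matrix genes such as Col3a1, none was called between the treated groups and 6 of 6 had a positive log2 fold change with a median of 0.11. The part of the fibroblast markers in the difference in Vcan was not tested.

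Bcan, the lectican most restricted to the nervous system together with Ncan, stood at 62.9, 66.5, 67.3 and 68.7 CPM with the antagonist and 73.4, 63.7, 67.9 and 61.6 CPM with both ligands. The groups overlapped completely, the dual libraries holding both the highest and the lowest value. Its log2 fold change was 0.0047 (95% interval -0.10 to 0.11) with an adjusted p-value of 0.983 in edgeR. Ncan stood at 223.6, 237.8, 223.7 and 230.04 CPM with the antagonist and 250.4, 224.7, 229.1 and 229.6 CPM with both ligands. Dual replicate 1 was the highest library of Tnc, Bcan and Ncan alike, and without it the log2 fold changes were -0.061, -0.043 and -0.0072. With all libraries the log2 fold change of Ncan was 0.03 (95% interval -0.05 to 0.11) with an adjusted p-value of 0.809 in edgeR. Acan ranged from 0.479 to 0.770 CPM with the antagonist and from 0.398 to 1.07 CPM with both ligands. Its log2 fold change of 0.22 had an SE of 0.30 (adjusted p-value 0.816 in edgeR), so at 13 to 49 counts a difference the size of that of Tnr was not detectable.

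Hapln1, whose product links lecticans to hyaluronan, did not pass the filter on low counts. It had 0.311, 0.0879, 0.0479 and 0.0880 CPM with the antagonist and 0.123, 0.0526, 0.0654 and 0.135 CPM with both ligands. The ranges overlapped, and p was 0.771 in an exact permutation test (two-sided, 70 arrangements). Ptprz1, a receptor on glial cells that binds tenascins and whose secreted form, phosphacan, is itself a chondroitin sulfate proteoglycan, stood at 402, 385.7, 379.4 and 391.7 CPM with the antagonist and 379.9, 380.4, 386.3 and 403.8 CPM with both ligands. The groups overlapped almost fully. Its log2 fold change of -0.0077 (95% interval -0.08 to 0.06, adjusted p-value 0.953 in edgeR) was the most narrowly bounded of the 8. Has2, which makes long hyaluronan chains, stood at 11.1, 10.05, 8.37 and 10.3 CPM with the antagonist and 11.2, 9.59, 10.6 and 11.3 CPM with both ligands. Apart from a low A2A antagonist replicate 3 the values mixed, and the log2 fold change was 0.10 (SE 0.09, adjusted p-value 0.672 in edgeR). Has2 shares 182 exonic bases with Has2os on the opposite strand.

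**Figure D2:**
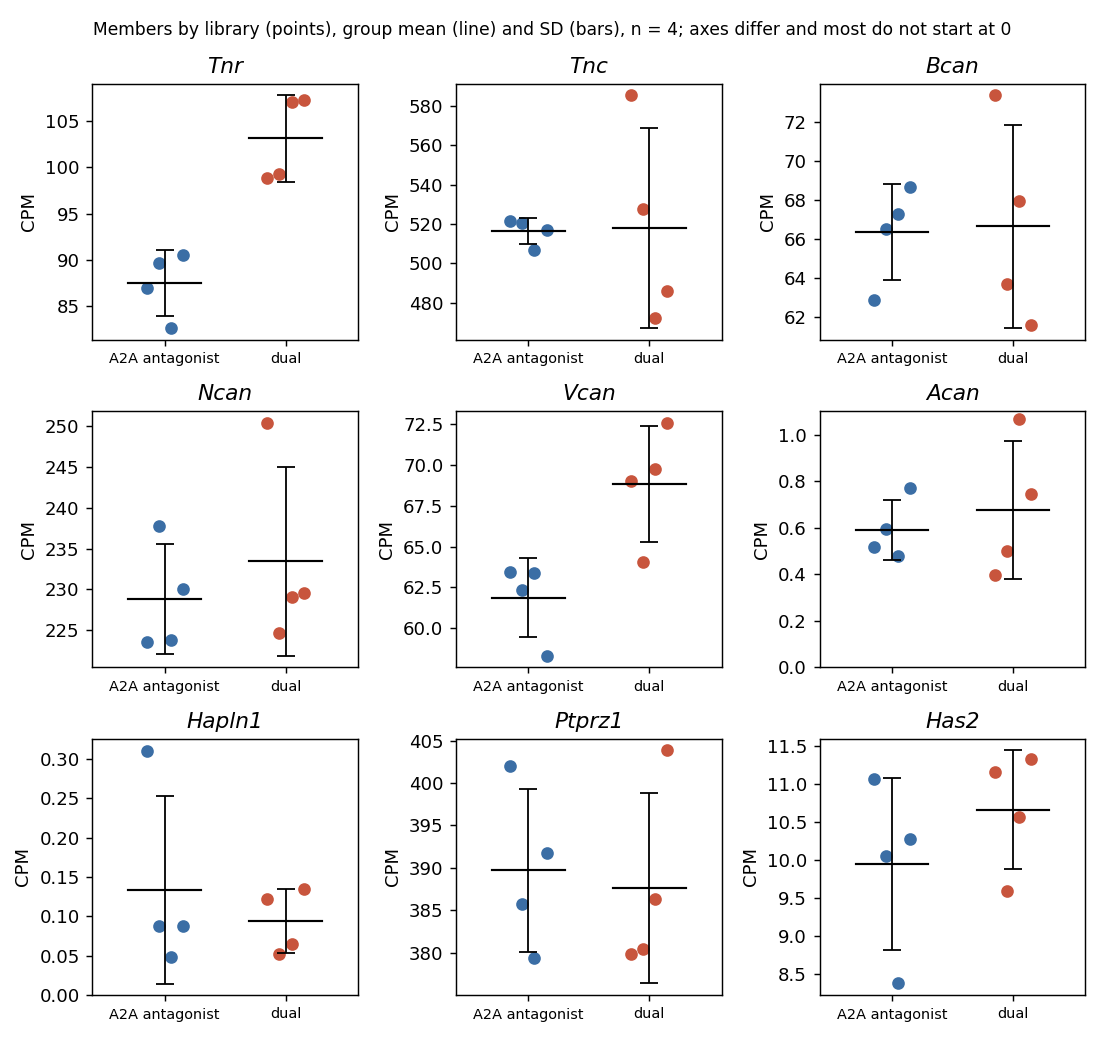
CPM of each of the 9 genes in the 4 A2A antagonist libraries (blue) and the 4 dual libraries (red), with the mean (line) and SD (bars) of each group, on axes that differ between panels and mostly do not start at 0. The groups are apart for Tnr (at most 90.6 against at least 98.8 CPM) and Vcan and overlap for the other 7 genes.

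**Figure D3:**
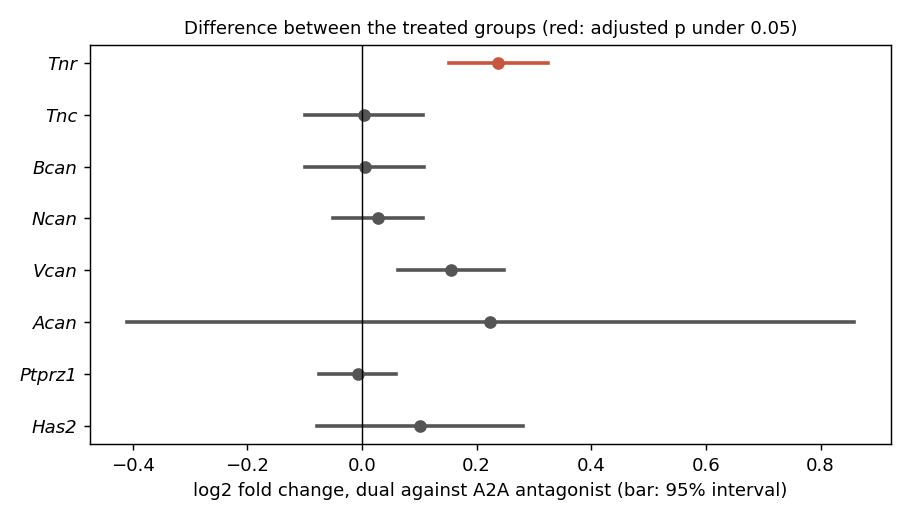
Log2 fold change of the dual against the A2A antagonist group with its 95% interval for the 8 genes left after filtering on low counts, with Tnr, the 1 called gene, in red. The intervals of Tnr and Vcan lie above 0, those of Tnc, Bcan, Ncan and Ptprz1 lie within 0.11 of 0 on the log2 scale, and that of Acan reaches from -0.41 to 0.86.

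Other genes of the same matrix were examined as a list of 62, of which 61 were in the table and 58 passed the filter. The list holds the proteases that cut lecticans, other link proteins and tenascins, genes of hyaluronan, enzymes that build chondroitin sulfate chains, other chondroitin sulfate proteoglycans, and ligands and receptors. None of the 58 was called by edgeR or by DESeq2, and 11 had an edgeR p-value under 0.05 before adjustment (9 higher and 2 lower with both ligands), which is 19.0% against 12.8% of all genes tested. The median log2 fold change was 0.03. The smallest adjusted p-value, 0.157, belonged to Adamts4, an enzyme that cuts brevican and aggrecan, whose log2 fold change was -0.17 (SE 0.05), and this gene was picked after its value was seen.

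Of the 12 most abundant genes, 2 from each group, 6 had an edgeR p-value under 0.05 before adjustment and none was called. The share over all genes tested was 12.8%, but it covers genes of all levels, and none was taken over genes of like abundance. Nothing is read from this count. Among the proteases, Adamts5 had 88.2 CPM on average over the 8 libraries and a log2 fold change of 0.09 (SE 0.04), while Adamts1 had 87.5 CPM and 0.14 (SE 0.06). The brain link protein gene Hapln4 stood at 6.98 CPM and the tenascin gene Tnn at 3.15 CPM, with log2 fold changes of -0.0085 (SE 0.09) and 0.01 (SE 0.13). Cd44, the main hyaluronan receptor, stood at 846 CPM at a log2 fold change of -0.10 (SE 0.03), and Cemip, which takes part in hyaluronan breakdown, at 238 CPM with 0.04 (SE 0.04). Among the enzymes for chondroitin sulfate, the sulfotransferase gene Chst11 had 182 CPM at a log2 fold change of 0.10 (SE 0.04), and the polymerizing factor gene Chpf 120 CPM with -0.04 (SE 0.06). The small proteoglycan genes Dcn and Bgn had 560 and 316 CPM with log2 fold changes of 0.11 (SE 0.05) and 0.0033 (SE 0.06). Fn1, for fibronectin, had 1029 CPM with 0.15 (SE 0.05) and Sdc4, for the surface proteoglycan syndecan-4, had 1004 CPM with -0.06 (SE 0.03). The adjusted p-values in edgeR of these 12 genes were between 0.197 and 0.989. Fn1 and Adamts4 were called when the low-count filter was left out (adjusted p-values 0.0254 and 0.0372 in edgeR).

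The A2A antagonist was set beside activated control cells through the authors' mean scaled counts alone, which carry no spread, so no test was made. These means share the A2A antagonist libraries with the comparison above. The mean of Ncan was 18007 in control and 9864 with the antagonist, that of Vcan 4824 and 2667, and that of Hapln1 10.6 and 5.75. In control these means were 1.83, 1.81 and 1.84 times those with the antagonist. These 3 of the 9 genes were more than 1.5-fold below control, against 9.33% of the genes tested. Hapln1, with 2 to 12 counts per treated library, did not pass the low-count filter and is not among the genes tested. Tnr came next with means of 5585 and 3771, in control 1.48 times the mean with the antagonist, and the scarce Acan (31.8 and 25.5) and Has2 (527 and 429) were 1.25 and 1.23 times as high in control.

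The remaining 3 genes had a higher mean with the antagonist, by less than 1.5-fold in each. Bcan had means of 2341 in control and 2860 with the antagonist, Ptprz1 of 15483 and 16799, and Tnc of 21514 and 22263, in control 0.818, 0.922 and 0.966 times those with the antagonist. As the means alone were used, without a spread, it cannot be said here which of these smaller differences exceed the replicate error.

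Of the 61 matrix genes in the table, 16 had a mean more than 1.5-fold below control with the antagonist and 2 were above it by that much, against 9.33% and 4.38% of the genes tested. Hapln2 and Lyve1, which are among the 16, did not pass the low-count filter and are not among the genes tested. Among the most abundant of each group, the means in control were 2.36 (Adamts1), 1.96 (Adamts5), 2.72 (Dcn), 2.41 (Bgn) and 2.38 (Fn1) times those with the antagonist, and 0.701 (Cd44) and 0.720 (Sdc4) times. The rest of these genes lay nearer to equal means, at 1.35 (Cemip), 1.35 (Chst11), 0.967 (Hapln4), 0.926 (Chpf) and 0.908 (Tnn) times. Markers of other cells moved in these means as well. The summed mean of the 6 fibroblast markers, which include Dcn, was 3.67 times as high in control as with the antagonist, and 6 of 6 were more than 1.5-fold lower with the antagonist. The summed mean of the 9 astrocyte markers was 0.823 times and that of the 9 microglia markers 0.895 times as high in control. For the oligodendrocyte precursor and oligodendrocyte markers the values were 0.860 and 0.868, and for the scarce endothelial and neuron markers 2.23 and 0.704. The neuron sum was mostly Gad1, with means of 890 in control and 1648 with the antagonist. Over the 6 neuron markers the median ratio of control to antagonist was 1.32. With the antagonist 3 of the 6 were more than 1.5-fold below control and 2 were above it by that much. The part of these markers in the means of the 9 genes was not tested.

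**Figure D4:**
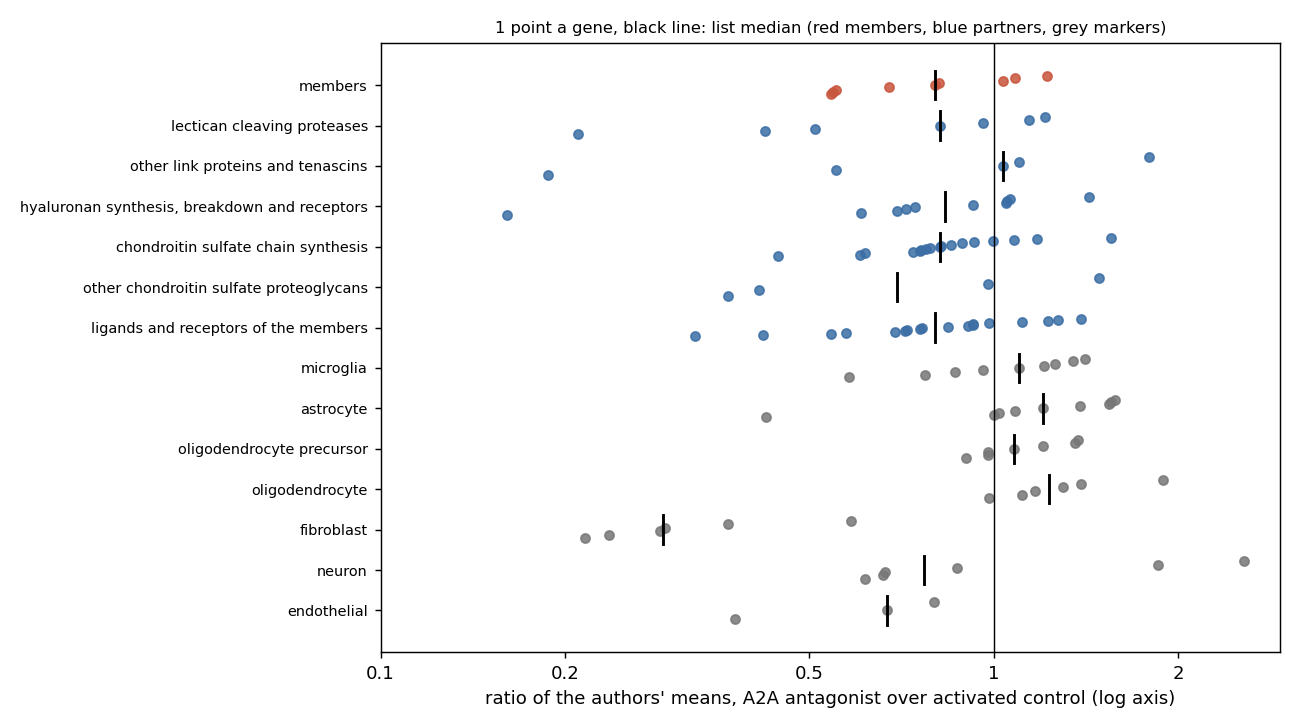
Ratio of the authors' mean with the A2A antagonist to that in activated control (log axis) for the 9 genes (red), the matrix genes by group (blue) and the cell type markers (grey), with 1 point a gene and a line at the median. Values left of 1 are lower with the antagonist, as for Ncan, Vcan and Hapln1 near 0.55 and for all 6 fibroblast markers, and the astrocyte markers lie mostly to the right of 1.

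After the mean of each treated group was taken off, Ptprz1 and Has2 had a Pearson r of 0.73 over the 8 libraries (0.62 to 0.89 with any 1 library left out), Tnr and Tnc of -0.59 (-0.86 to -0.45) and Bcan and Ptprz1 of -0.65 (-0.85 to -0.39). The values of 0.68 for Tnc and Ncan and 0.73 for Bcan and Ncan rested on dual replicate 1, without which they were -0.18 and 0.25. These values are descriptions without a test, and the points share library, depth and group means. Among 11051 well-expressed genes, the 2 whose pattern was most like that of Tnr were Zfp275 (r 0.98) and Supt4a (0.97). For Tnc they were Csf2rb2 (0.99) and Ssr4 (0.98), for Bcan Kri1 and Col6a1 (0.99 each), for Ncan Depdc5 (0.98) and Dchs1 (0.97), and for Vcan Gm15501 (0.99) and Vamp3 (0.97). For Ptprz1 they were Cfap36 (0.996) and Cep68 (0.98), and for Has2 Hdac9 (0.96) and Ccpg1os (0.94). With 8 libraries and this many genes searched, values of this size are the highest of a long list. With any 1 library left out they were 0.821 to 0.998, an alternative chosen after seeing the data, as was that for the correlations among the 9 genes.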

How the data were processed

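Poly-A RNA was sequenced in 8 libraries, and for each gene the authors deposited raw counts, FPKM values and the gene length in 1 table of the treated groups. Per the methods, paired-end reads were aligned with HISAT2 to an Ensembl mouse genome, and per the labels counted with featureCounts 1.5.0-p3 on mm10. Whether strand was used was not stated. The deposited FPKM values were a constant of 0.987 to 1.004 times the count per kilobase scaled to the library total, within each library. From a second table only the authors' mean per group of scaled counts (a signal, deposited without errors) was used. The 9 per-library columns of 3 control libraries belong to no sample of this series and were not used, nor were the deposited fold changes and p-values. Genes were matched by symbol and joined by identifier. Of the 31406 identifiers 31389 were in GENCODE mouse release M21, 97.5% of them with the same coordinates.

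Counts were tested with edgeR 4.0.16 (R 4.3.3): filterByExpr with a minimum count of 10, TMM factors, quasi-likelihood F test without covariates, two-sided p-values adjusted by the Benjamini-Hochberg procedure over 18756 genes, and a threshold of 0.05. CPM values were scaled with the TMM factors. Scripts were tested on simulated counts. The chi-square per degree of freedom between libraries of a group was 3.80 to 9.43, well over counting noise, and no library was taken for a duplicate. The 13 alternatives were other size factors, no size factors, DESeq2 1.42.0, no filter, the replicate number as a block, and each library left out. The genes and lists were chosen with earlier results of these data known. All 9 genes are named, with the 2 most abundant matrix genes of each group, the called ones, the link protein genes beside the lecticans, the markers and the 2 genes most correlated with each gene of mean log2 CPM of at least 1.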

Additional observations from a re-analysis of the deposited data

Results flagged for a closer look

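In 1 of the 18 sets of 4 libraries examined (9 genes in 2 groups), a single library stood apart by Dixon's criterion. Hapln1 in A2A antagonist replicate 1 had 0.311 CPM from 12 counts, against 0.0880 CPM in the next library. The gap was 0.847 of the range of the group, above the 95% critical value for 4 libraries. Chance alone sets apart about 1 in 20 such groups, and the counts of Hapln1 are few in every library.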

How the results depend on the processing

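The log2 fold changes of Tnr, Vcan and Has2 stayed positive in all 13 alternatives. The calls of Tnr and Vcan varied, and Has2 was called in none. The number of genes called over the whole table was 39, and it became 369 with DESeq2, 366 without the low-count filter and 17 with the replicate block. With 1 library left out it ran from 0 to 172, the 0 arising without A2A antagonist replicate 4 and without dual replicate 3, where 1802 and 2092 genes still had a p-value under 0.05 in edgeR before adjustment. Of the 9 genes 2 were called with DESeq2, Tnr and Vcan (log2 fold change 0.16, adjusted p-value 0.0367), and 0 to 1 with a library left out. DESeq2 gave no adjusted p-value for Has2 and Acan. Without the filter, 2 matrix genes were called, Adamts4 (log2 fold change -0.17, adjusted p-value 0.0372) and Fn1 (0.14, adjusted p-value 0.0254), and Hapln1 had a log2 fold change of -0.48 (SE 0.70, adjusted p-value 0.870).

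No pairing by the replicate numbers of the titles was visible. The deviations of same-numbered libraries correlated at -0.158, -0.0470, -0.0903 and -0.206 over 11051 genes, and no library correlated best with its own number. Whether same-numbered libraries shared an animal or a preparation was not stated, and weak correlations cannot settle it. With the numbers as a block 0 of the 9 genes were called, and the log2 fold change of Tnr was 0.24 with an adjusted p-value of 0.0575 in edgeR.

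With 1 library left out, the log2 fold change was 0.21 to 0.26 for Tnr (adjusted p-value 0.0204 to 0.0932), -0.061 to 0.043 for Tnc, -0.043 to 0.041 for Bcan, -0.0072 to 0.047 for Ncan, 0.13 to 0.19 for Vcan, -0.093 to 0.39 for Acan, -0.028 to 0.0064 for Ptprz1 and 0.027 to 0.15 for Has2. Tnc turned to -0.0024 and Bcan to -0.0011 without the filter, Tnc to -0.0011 with the block, and Ptprz1 to 0.0024 without scaling. None of these passed a threshold, and the cause of the shifts was not tested. Low counts limit Acan and Hapln1, and the control means were used without an error.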
